A study of Mus musculus with 6 samples.

Results

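The 46 genes described here encode proteins of the cytosolic ribosome, measured in C2C12 myoblasts, mouse cells of an established line that can form muscle fibres. They were taken from 18193 genes on the array by name: symbols of the form Rpl or Rps with a number and an optional letter, together with Rplp0, Rplp2 and Rpsa, where the platform annotation gave a probe set (the group of probes read as 1 value) to a single gene. Kinase genes of the Rps6k family, Rps19bp1 and pseudogenes were left out, and each gene was read at its brightest single-gene probe set. The choice of probe set used signal level and no difference between the groups. The gene set itself was chosen with earlier results of these data known. Rplp1, the other acidic stalk gene, had no single-gene probe set.

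The cytosolic ribosome is built from a small subunit, which decodes the mRNA, and a large subunit, which joins amino acids, and each holds ribosomal RNA and 1 copy of most of its proteins. Ribosomal protein genes are among the most highly transcribed genes of growing cells such as myoblasts. Their mRNAs begin with a short run of C and T bases, the terminal oligopyrimidine (TOP) motif, through which growth signals of the mTOR kinase control their translation. Translational control of this kind would not be seen in mRNA levels.

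All 6 cultures carried a tetracycline-inducible integrin alpha7 construct and were kept undifferentiated in medium with 20% serum for 36 h. In 3 cultures tetracycline was absent (noninduced) and in the other 3 it was present at 1 µg/ml (labelled induced). The 2 groups therefore differ in the drug as well as in any induction of the construct, and no culture without the construct was analysed here. Each culture was hybridised to 1 Affymetrix Mouse 430 2.0 array, and the series calls the 3 samples of a condition biological replicates. Values are signal intensities scaled to a common mean on every array, so a level is relative to the rest of the array.

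The targeted transcript did not mark the groups. Itga7 gave 811, 778 and 786 (noninduced replicates 1 to 3) and 675, 727 and 676 (replicates 1 to 3 labelled induced). Every array labelled induced was lower (log2 -0.19, SE 0.058, limma adjusted p = 0.181). The labels do not say which species or part of the transcript the construct carries, so this probe set may check nothing, and directions below rest on the labels. All 7 myoblast markers (Myod1, Myf5, Des, Cdh15, Itga7, Cdh2 and Vcam1) were above the signal filter, and their summed signal was 6205 to 6370 (noninduced) and 5979 to 6420.0 (labelled induced). The 5 endothelial markers summed to 50.9 to 70.1 and 50.3 to 63.8, and the 5 macrophage markers to 144.0 to 183 and 127 to 150.2, in the same order. Of these, 1 of 5 and 3 of 5 were above the filter, among them Csf1r at 51.6 to 82.4, while Pecam1 and Ptprc were at most 20.6 and 10.4 on any array. Differentiated muscle markers (2 of 6 above the filter) summed to 234 to 298 and 239.6 to 281, and epithelial markers (2 of 4) to 97.2 to 131 and 103 to 119. None of the 3 adipocyte and 2 erythroid markers was above the filter. The part of other cells in the results was not tested. Fluidics runs were inferred from gaps between the hybridisation times in the file headers. By these, noninduced replicates 1 to 3 and induced replicate 1 shared a run, and induced replicates 2 and 3 were in a second run. The second run held no noninduced array, so run and group can be separated only through induced replicate 1. All noninduced arrays were scanned before all others, so group and order of scanning cannot be told apart. P-values here measure the spread between these arrays.

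No ribosomal protein gene passed the test. Of the 46 genes, 42 had a mean signal above the median of all probe sets (23.4) and were tested. With limma and Benjamini-Hochberg adjustment over all 22518 probe sets tested, 0 of 42 had an adjusted p under 0.05, against 45 of 22518 probe sets (0.200%), and the lowest adjusted p of a member was 0.223. At an unadjusted p under 0.05 there were 4 of 42 members, all 4 lower on the arrays labelled induced. Over all probe sets the share was 14.7% in both directions together, with 1634 of 22518 lower and 1672 higher. The log2 fold changes (induced minus noninduced, on log2(signal + 16)) ran from -0.21 to 0.09. Their median was -0.0071, with 18 positive and 24 negative, beside a median of -0.0104 over all probe sets tested.

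For most members the intervals were narrow under the deposited scaling, and other scalings moved them, as given further on. In 34 of 42 members the mean signal was above 4000, and in these the median standard error was 0.0395 on the log2 scale. Their 95% intervals lay between -0.21 and 0.16, which is 13.6% lower to 11.9% higher, and 32 of 34 intervals included 0. Replicates of 1 group varied by a median of 2.68% (noninduced) and 2.97% (labelled induced) of the mean. In all 455 probe sets above 4000 these were 3.11% and 3.12%, and the median size of the log2 fold change was 0.0474, against 0.0356 in the 34 members. The highest value of a member on any array was 14103, and 16604 was the highest on the arrays altogether. Whether signals of this size were compressed was not tested.

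**Figure D1:**
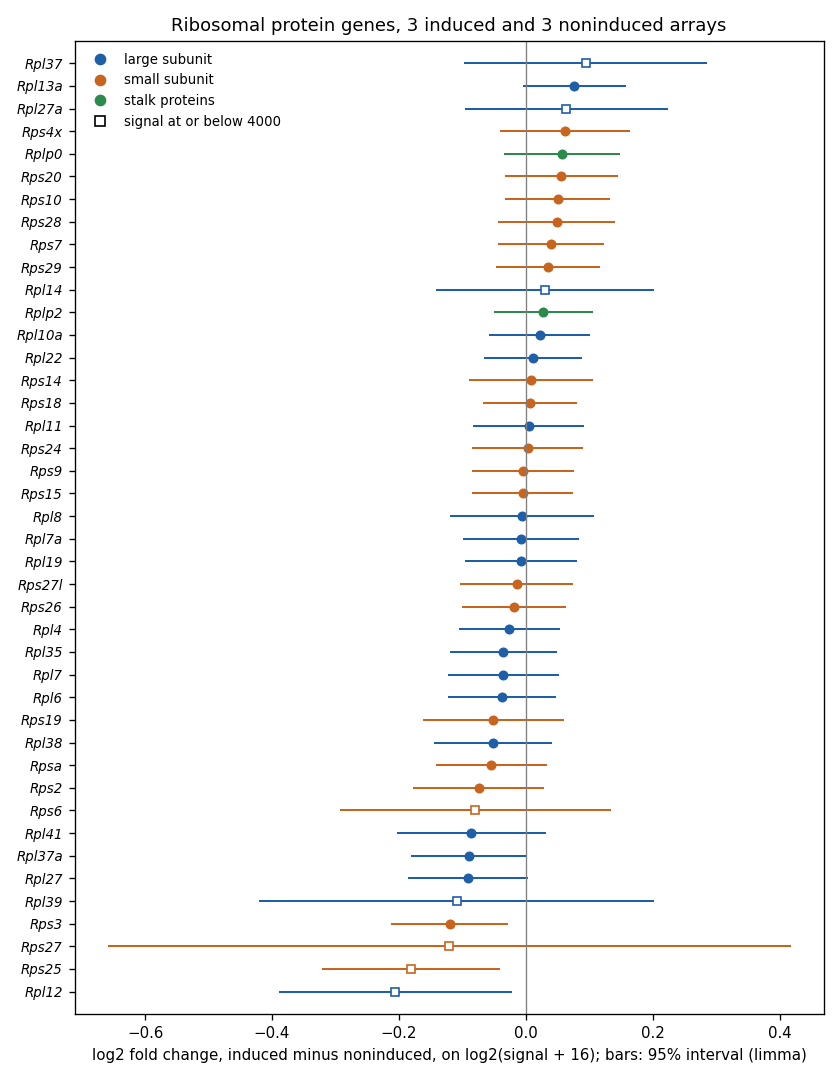
Log2 fold change (x axis, induced minus noninduced, on log2(signal + 16)) with its 95% interval for each of the 42 ribosomal protein genes tested, ordered by value, 3 arrays a group. Filled points have a mean signal above 4000 and sit between -0.12 and 0.08, while open squares are dimmer and have wider intervals.

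The start of the gene carries the feature that defines this class of mRNA, so it is shown for members tested here. The RefSeq promoter table (GRCm38.p6) held 37 of the 42 members, and Rpl7, Rpl8, Rps14, Rps20 and Rps29 were without an entry. In 8 of these 37 genes the annotated first base was a C followed by at least 4 C or T bases. Windows were counted as 1 for each annotated start: 8 of 44 member windows (18.2%) began in this way, against 2.51% of all 32851 windows in the table. The 8 starts follow, each as 15 bases before the annotated start and 15 from it on, with the run of C and T bases from the start in capitals.
Rpl14, chr9:120571502-120571531, plus strand: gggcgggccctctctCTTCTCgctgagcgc
Rpl35, chr2:39005117-39005146, minus strand: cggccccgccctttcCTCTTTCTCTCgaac
Rpl38, chr11:114668565-114668594, plus strand: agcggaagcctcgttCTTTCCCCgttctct
Rplp2, chr7:141447636-141447665, plus strand: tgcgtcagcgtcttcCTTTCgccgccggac
Rps10, chr17:27635230-27635259, minus strand: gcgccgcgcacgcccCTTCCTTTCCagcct
Rps18, chr17:33955651-33955680, minus strand: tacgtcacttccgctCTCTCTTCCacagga
Rps27, chr3:90213634-90213663, minus strand: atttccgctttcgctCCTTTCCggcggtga
Rps6, chr4:86857353-86857382, minus strand: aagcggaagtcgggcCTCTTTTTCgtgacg
An annotated start can differ from the one used in these cells, so a gene without the run here may still begin with one. The 8 genes had log2 fold changes from -0.12 to 0.05 (median -0.0144), and the other 29 with an entry ran from -0.21 to 0.09 (median -0.0078).

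Promoters of ribosomal protein genes are known for sites of ETS factors such as GABP and for sites of YY1. The ETS core CCGGAAG, on either strand of the 300-base window, was found in 19 of 44 member windows (43.2%) and in 8.86% of all windows. The YY1 core AAGATGG, also on either strand, was found in 6 of 44 (13.6%) and in 6.34% of all windows. The first core ends and the second begins with AAG, so matches of both can overlap. The 19 genes with the ETS core had a median log2 fold change of -0.0188 and the 18 without it -0.0045. For the YY1 core these medians were 0.0016 with it (6 genes) and -0.0142 without it (31 genes). The transcripts of these factors did not pass the test either: Gabpa, the DNA-binding subunit of GABP, was at 0.02 (limma adjusted p = 0.940) and Yy1 at 0.15 (limma adjusted p = 0.227).

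Proteins of the small subunit gave 20 tested genes, of which 9 were positive and 11 negative (median -0.0045). Their log2 fold changes ran from -0.18 to 0.06. Rps3, which lies at the mRNA entry channel and also has roles in DNA repair, had the lowest adjusted p of all members. Its signal was 7119.5, 7218 and 7212 (noninduced replicates 1 to 3) and 6508, 6372 and 6959 (replicates 1 to 3 labelled induced). The groups did not overlap: the highest array labelled induced lay below the lowest noninduced one. The log2 fold change was -0.12 (SE 0.042, limma adjusted p = 0.223), and -0.03 with median-centred arrays. The other tested probe set of Rps3, a dim one, was at 0.10 (SE 0.120), with overlapping groups.

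Rps25, a protein of the small subunit head needed by some viral internal ribosome entry sites, gave 677, 672 and 628 (noninduced replicates 1 to 3) and 549, 591 and 599 (replicates 1 to 3 labelled induced). These groups did not overlap either (log2 -0.18, SE 0.064, limma adjusted p = 0.227). In the first fluidics run alone Rps3 was at -0.14 and Rps25 at -0.26. Groups that did not overlap, with the arrays labelled induced lower, were found in 4 of 42 members (Rps3, Rps25, Rpl27 and Rpl37a) and in 10.6% of all probe sets. The reverse was found in 1 member, Rpl13a, and in 9.65% of all probe sets.

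Rps4x, the X-linked gene of a small subunit protein, gave 9820.0, 9954 and 9539 (noninduced replicates 1 to 3) and 10959.8, 9789 and 9882 (replicates 1 to 3 labelled induced). Induced replicate 1 stood above the rest and the other arrays lay together, so the groups overlapped (log2 0.06, SE 0.046). Rps20, another protein of the small subunit head, was at 0.06, Rps10 at 0.05, Rps28 at 0.05, Rps7 at 0.04 and Rps29 at 0.04, with overlapping groups in each. The sign was not the same at every probe set. The dimmer ones of Rps28 were at -0.06 and -0.09, of Rps29 at -0.01 and -0.07, and of Rps7 at -0.03. Those of Rps20 were at 0.08 to 0.09, and those of Rps10 are given further on. Rps2, at the mRNA entry, was at -0.07, and Rpsa, which has also been described as a laminin-binding protein, was at -0.05. Rpsa gave 9706, 10105 and 9602 (noninduced replicates 1 to 3) and 9444, 9122 and 9764 (replicates 1 to 3 labelled induced), and here too the groups overlapped. Rps18, often used as a reference gene, was at 0.01 (95% interval -0.07 to 0.08), with 10852, 10788 and 10688 (noninduced replicates 1 to 3) and 10939, 10767 and 10771 (replicates 1 to 3 labelled induced). At this probe set all 6 arrays lay within a narrow band. Other bright probe sets of Rps18 were at -0.10 and -0.07, and dim ones at -0.44 and 0.38. The groups overlapped in each.

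Rps6, the substrate of the S6 kinases, was read at a dim probe set. It gave 463, 356 and 403 (noninduced replicates 1 to 3) and 387, 349 and 414 (replicates 1 to 3 labelled induced). The ranges of the groups overlapped (log2 -0.08, SE 0.097). Rps27 was also dim and was the most variable member, with 187, 146 and 190.1 (noninduced replicates 1 to 3) and 93.7, 159 and 258 (replicates 1 to 3 labelled induced). Induced replicate 1 was the lowest array and induced replicate 3 the highest. Its log2 fold change was -0.12 with a 95% interval from -0.66 to 0.42, and -0.79 in the first fluidics run alone. Rps27l, the paralog of Rps27 known as a p53 target, gave 4443, 4428 and 4236 (noninduced replicates 1 to 3) and 4296, 4346 and 4333 (replicates 1 to 3 labelled induced) (log2 -0.0142, SE 0.040), with overlapping groups. Slightly dimmer probe sets of Rps27l were at -0.08, with all arrays labelled induced lower, and at -0.05, with overlapping groups.

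Proteins of the large subunit gave another 20 tested genes, 7 positive and 13 negative (median -0.0168, range -0.21 to 0.09). Rpl12, a protein at the base of the stalk, had the most negative value. It gave 446, 400.1 and 441 (noninduced replicates 1 to 3) and 374, 405 and 333 (replicates 1 to 3 labelled induced), with overlapping groups (log2 -0.21, SE 0.083, limma adjusted p = 0.285). Rpl27 gave 10878, 11565 and 10674 (noninduced replicates 1 to 3) and 10673, 9949 and 10466 (replicates 1 to 3 labelled induced). The highest array labelled induced was just below the lowest noninduced one (log2 -0.09, SE 0.043, limma adjusted p = 0.352). Rpl37a was also at -0.09 (limma adjusted p = 0.340), and its dimmer probe sets were at 0.03, with overlapping groups, and -0.18. Rpl41, the smallest of these proteins, was at -0.09 with overlapping groups, and noninduced replicate 2 was its highest array. Rpl39, a protein of the exit tunnel, was at -0.11 from signals under 100, with an SE of 0.142.

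Rpl13a, which also takes part in a translational silencing complex and serves as a reference gene, gave 9525, 9386 and 9596 (noninduced replicates 1 to 3) and 10078, 10276 and 9717 (replicates 1 to 3 labelled induced). The arrays labelled induced were all higher (log2 0.08, SE 0.037, limma adjusted p = 0.360). The dimmer probe sets of Rpl13a were at -0.04 and 0.02, with overlapping groups, and at 0.16. Rpl37 had the highest log2 fold change, 0.09, from 2221, 1865 and 2184 (noninduced replicates 1 to 3) and 2298, 2476 and 1936 (replicates 1 to 3 labelled induced), and its groups overlapped widely (SE 0.087). Rpl27a was at 0.06 from dim signals. Rpl11, which with its partner Rpl5 can bind and block MDM2 when ribosome assembly fails, gave 7664, 7510.0 and 7514 (noninduced replicates 1 to 3) and 7906, 7508 and 7355 (replicates 1 to 3 labelled induced). Its log2 fold change was 0.0046 (95% interval -0.08 to 0.09), and the groups overlapped. Rpl5 itself, with Rpl3, Rpl10 and Rpl36al, was on the array only at probe sets shared with other genes and has no value here.

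The stalk, where elongation factors dock, was represented by Rplp0 and Rplp2. Rplp0, widely used as a reference gene, gave 11281, 11506 and 10832 (noninduced replicates 1 to 3) and 12228, 11464 and 11296 (replicates 1 to 3 labelled induced). Induced replicate 1 was the highest array, and the remaining arrays labelled induced lay within the noninduced range (log2 0.06, SE 0.041, limma adjusted p = 0.558). Rplp2 was at 0.03 (limma adjusted p = 0.763).

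The highest value fell mostly on 1 array of each group. Among the 34 members above 4000, induced replicate 1 was highest in 16 and noninduced replicate 2 in 14, while induced replicate 2 was lowest in 17. The first set held Rplp0, Rplp2, Rps4x, Rps20, Rps28 and Rps29, and the second Rpl27, Rpl37a, Rpl38, Rpl41, Rps2 and Rps19. Over all 455 probe sets above 4000 noninduced replicate 2 was highest in 40.2% (41.2% of the members), induced replicate 1 in 27.5% (47.1% of the members) and induced replicate 2 lowest in 36.3% (50% of the members). The median deviation of these 34 members from their own means was 0.0269 on induced replicate 1 and -0.0294 and -0.0052 on induced replicates 2 and 3, which were run second. On noninduced replicates 1 to 3 it was 0.0029, 0.0304 and -0.0194. Over all probe sets above 4000 noninduced replicate 2 stood at 0.0288 and induced replicate 1 at 0.0173. Within the first run, where induced replicate 1 is the single treated array, the fit of all 42 gave a member median of 0.0181, against -0.0016 over all probe sets.

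**Figure D2:**
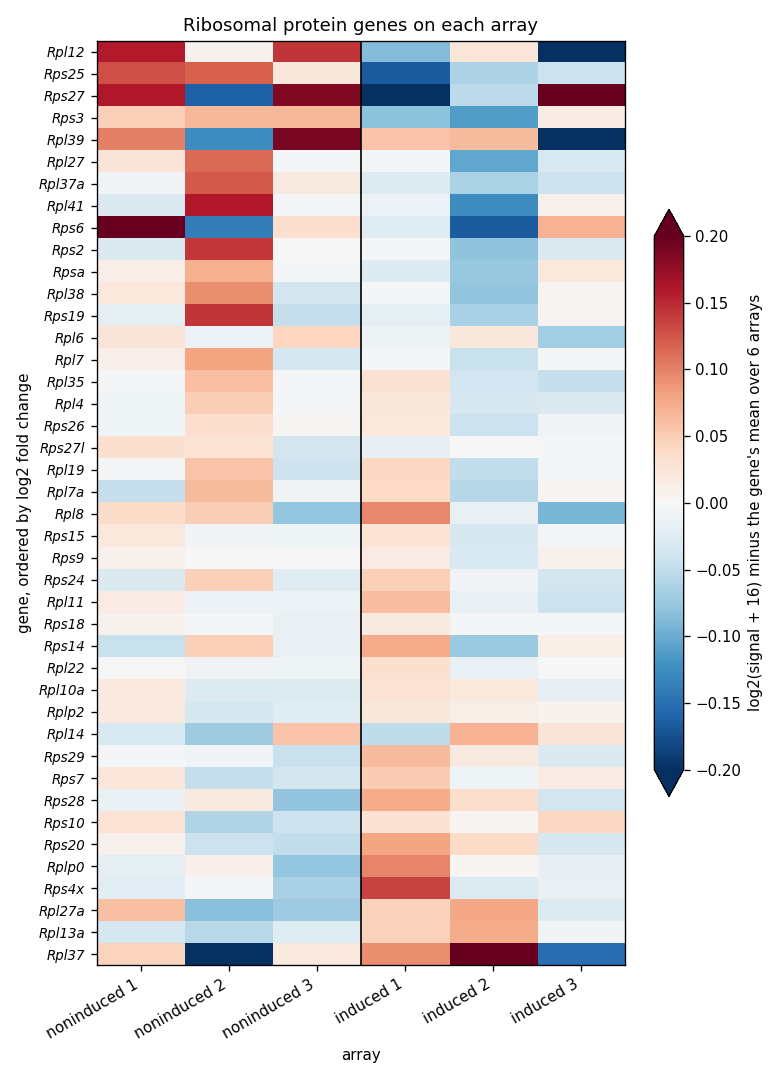
Each cell is a gene's log2(signal + 16) on 1 array (x axis) minus its mean over the 6 arrays, for the 42 genes tested in order of log2 fold change (y axis), with colours limited to 0.2 in either direction. Noninduced replicate 2 is high for genes in the upper part, and induced replicate 1 for genes in the lower part.

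Several probe sets of 1 gene did not always give the same value. The members had 100 single-gene probe sets, 90 of them tested, and 0 of 90 had a limma adjusted p under 0.05, while 14 had an unadjusted p under 0.05, 8 higher and 6 lower, against 14.7% of all probe sets. In Rpl27 the brightest probe set was at -0.09 and the other 2 at 0.17 and 0.19. The last of these gave 4325, 3682 and 4033 (noninduced replicates 1 to 3) and 4844, 4770.5 and 4119 (replicates 1 to 3 labelled induced). Noninduced replicate 2, the highest array at the brightest probe set of Rpl27, was the lowest at this one. Rpl35 was at -0.04 with its brightest probe set, and the dimmer ones ranged from 0.04 to 0.12.

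A few further probe sets were picked after their values were seen. Rpl22, a large subunit protein that binds RNA structures, was at 0.01 and -0.04 with its 2 brighter probe sets and at 0.31 with the dimmest, which had the lowest adjusted p of any probe set of a member (limma adjusted p = 0.0553). That probe set gave 563, 563 and 566 (noninduced replicates 1 to 3) and 713, 714 and 687 (replicates 1 to 3 labelled induced), so the groups were far apart there and not at the others. Rps10 was at 0.69 with 1 of 6 probe sets (SE 0.237, limma adjusted p = 0.216), which gave 7111, 2784 and 3679.7 (noninduced replicates 1 to 3) and 6599, 7319.8 and 6423 (replicates 1 to 3 labelled induced). Noninduced replicates 2 and 3 were low on that probe set while replicate 1 was as high as the arrays labelled induced, and the 4 other Rps10 probe sets with signals above 4000 lay between -0.09 and 0.05. Rps24, which is spliced into several forms, ranged from -0.02 to 0.26 over 6 probe sets. Which exons these probe sets read was not analysed here.

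**Figure D3:**
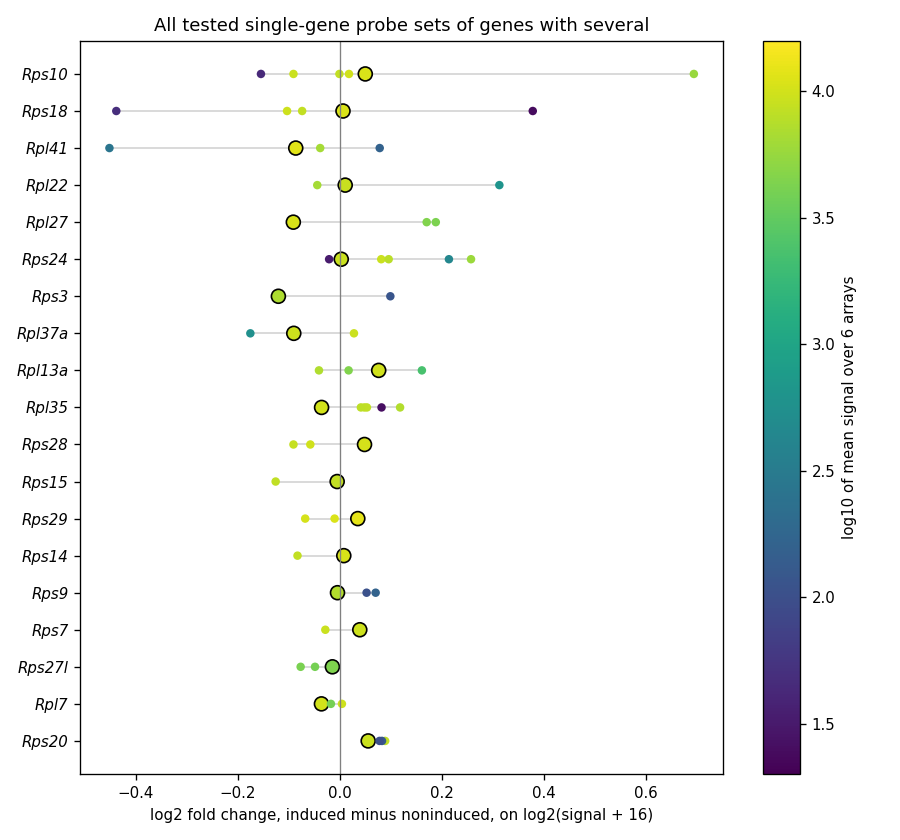
Log2 fold change (x axis, induced minus noninduced) of every tested single-gene probe set of the ribosomal protein genes with more than 1, coloured by the log10 of the mean signal, with the brightest probe set of each gene as a large outlined point. Rps10, Rps18, Rpl41 and Rpl22 spread most, through probe sets dimmer than the brightest one.

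Not all of the array's signal for ribosomal protein genes is in the single-gene probe sets. Ribosomal protein genes have many processed pseudogenes, and 110 further probe sets listed a ribosomal protein symbol along with other genes. They carried 44 such symbols, of which 29 are not among the 46 genes described here. In 105 tested, 0 passed (unadjusted p under 0.05 in 14, 7 higher and 7 lower, against 14.7% of all probe sets), and the median log2 fold change was -0.0070 with a range from -0.42 to 0.57. Single-gene probe sets were at or below 4000 in 12 members, and for 9 of these 12 a probe set shared with other genes was above 4000. The 9 were Rpl12, Rpl14, Rpl27a, Rpl37, Rpl39, Rps6, Rps16, Rps25 and Rps27. The values printed for them, the 2 most negative ones of Rpl12 and Rps25 included, thus come from the dimmer of the probe sets that list the gene. Near-identical copies make any of these probe sets uncertain as a measure of 1 gene.

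The remaining 4 members were below the filter. Rpl3l, the paralog of Rpl3 that appears in mature muscle, gave 1.67, 4.08 and 4.31 (noninduced replicates 1 to 3) and 2.96, 12.7 and 2.15 (replicates 1 to 3 labelled induced). All 6 values were near the bottom of the scale. Rpl39l and Rps4l, expressed mainly in testis, gave at most 14.0 and 3.02 on any array. Rps16 was at most 21.9 with its single-gene probe set.

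Genes close to the members by name or role were read in the same fit. Fau, which encodes Rps30 fused to a ubiquitin-like protein, gave 9445, 10031 and 9432 (noninduced replicates 1 to 3) and 9218, 8921 and 9284 (replicates 1 to 3 labelled induced), and the groups did not overlap (log2 -0.08, limma adjusted p = 0.397). Rack1 had no single-gene probe set. Rps3a1, whose symbol ends in a digit and so lies outside the naming rule, was at 0.02 (limma adjusted p = 0.830). Rpl22l1, the paralog of Rpl22, was at 0.14 (limma adjusted p = 0.266) with 4459.9, 4042 and 4233 (noninduced replicates 1 to 3) and 4435, 4587 and 5056 (replicates 1 to 3 labelled induced), and its groups overlapped. Rpl7l1 was at -0.25 (limma adjusted p = 0.113) with 1065, 1190.4 and 1187 (noninduced replicates 1 to 3) and 960.4, 1003 and 921 (replicates 1 to 3 labelled induced), and its groups did not overlap.

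Other mRNAs with a TOP motif had small differences too. Of 19 tested, 0 passed in limma (unadjusted p under 0.05 in 2, against 14.7% of all probe sets). There were 10 positive and 9 negative values, and the median was 0.0026. In 4 of 19 the groups did not overlap, with the arrays labelled induced lower (21.1%, against 10.6% of all probe sets). The reverse was found in 1 (5.26%, against 9.65%). The median SE was 0.0421 in this list and 0.117 over all probe sets, so these shares are not like for like. Tpt1, the translationally controlled tumour protein, had the lowest value at -0.12 and Npm1, the nucleolar chaperone nucleophosmin, the highest at 0.09. The elongation factor genes Eef1a1 and Eef2 were at -0.09 and -0.03, and Pabpc1, the poly(A)-binding protein, at 0.03.

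Genes of ribosome assembly were more often negative. Of 51 tested, 0 passed in limma (unadjusted p under 0.05 in 13, 1 higher and 12 lower, against 14.7% of all probe sets in both directions together), 13 were positive and 38 negative, and the median was -0.06. In 16 of 51 the groups did not overlap, with the arrays labelled induced lower (31.4%, against 10.6% of all probe sets). The reverse was found in 1 (9.65% of all probe sets). The shares of this list are not like for like with those of all probe sets: the median SE was 0.0699 in the list and 0.117 over all. The share among probe sets as bright as this list was not computed. With median-centred arrays, where every probe set moves up by the same amount, the list median was 0.04 beside 0.0829 over all probe sets, and after quantile normalization -0.07 beside -0.0001. Median centring cannot change the gap between the list and all probe sets, and there the sign of the list median turned. After quantile normalization, which can change the gap, the list median lay below that of all probe sets. Mdn1, the large ATPase that remodels the pre-60S particle, was at -0.53 (limma adjusted p = 0.101) with 335, 345 and 364 (noninduced replicates 1 to 3) and 259, 183 and 276 (replicates 1 to 3 labelled induced). All 3 arrays labelled induced were lower. Mphosph10, of the small subunit processome, was at -0.28 (limma adjusted p = 0.151). The nucleolar proteins nucleolin (Ncl) and fibrillarin (Fbl) were at 0.11 and -0.11.

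In the RNA polymerase I and III list, which serves ribosomal RNA and tRNA, 0 of 27 tested genes passed in limma. An unadjusted p under 0.05 was found in 4, 1 higher and 3 lower, against 14.7% of all probe sets. The list had a median of -0.0152. Its largest differences were those of Taf1a (-0.45), a subunit of the polymerase I selectivity factor, and Polr3d (-0.30), with limma adjusted p of 0.181 and 0.194. Among 13 chaperones and importers of ribosomal proteins 0 passed in limma (unadjusted p under 0.05 in 3, 1 higher and 2 lower, against 14.7% of all probe sets), with a median of 0.0145. The higher one was Tnpo1, an import receptor, at 0.20. The lowest values were those of Tsr2, which escorts Rps26 (-0.28), and Grwd1, which escorts Rpl3 (-0.27), with limma adjusted p of 0.144 and 0.202.

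One regulator passed. Eif4ebp1 encodes 4E-BP1, which blocks cap-dependent translation until mTOR phosphorylates it and is also a target of the stress factor ATF4. It gave 1746, 1551 and 1734 (noninduced replicates 1 to 3) and 2201, 2118 and 2114 (replicates 1 to 3 labelled induced). Every array labelled induced was higher (log2 0.35, SE 0.055, limma adjusted p = 0.0235). Its other probe sets were at 0.22 (limma adjusted p = 0.0940) and 0.15. The call was lost in 11 alternatives, among them those with no filter on signal (limma adjusted p = 0.105) and without a variance trend (0.293). The log2 fold change of Eif4ebp1 in the first run alone, with its single treated array, was 0.39 (limma adjusted p = 0.284), a test of little power. The call was also lost without noninduced replicate 2 (0.30, limma adjusted p = 0.0778), noninduced replicate 3 (0.38, 0.0841), induced replicate 1 (0.33, 0.130) or induced replicate 2 (0.36, 0.0835).

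The other 20 of 21 regulators tested did not pass, and the list median was 0.07. Over all probe sets 0.200% passed. An unadjusted p under 0.05 was found in 4 of 21, 3 higher and 1 lower, against 14.7% of all probe sets. The lower one was Maf1, at -0.20 (limma adjusted p = 0.164). The groups did not overlap in 4 with the arrays labelled induced higher (19.0%, against 9.65% of all probe sets). The reverse was found in 2 (9.52%, against 10.6%). Myc, an activator of ribosome synthesis, was at 0.07, Mtor at 0.08, Rheb, the small GTPase that activates mTORC1, at 0.15, and Larp1, which binds TOP mRNAs, at -0.05. Mnt, a repressor of the MYC network, was at 0.22 (SE 0.128), with overlapping groups. None of 6 tested genes of the p53 list passed in limma (unadjusted p under 0.05 in 0, against 14.7% of all probe sets). Among them were Mdm2 at 0.06, Mdm4 at 0.13, Cdkn1a at -0.08 and Sesn2 at 0.15 (list median 0.0164).

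**Figure D4:**
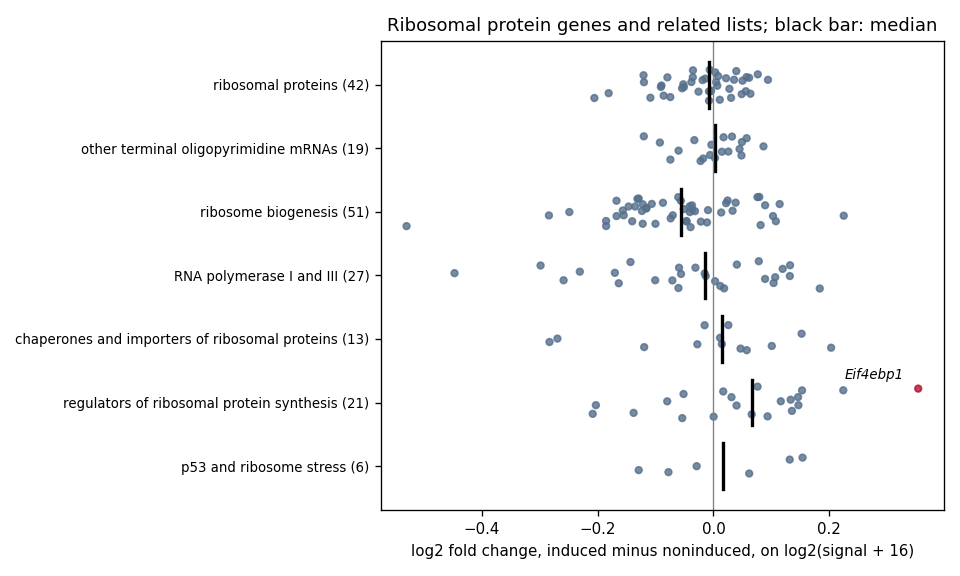
Log2 fold change (x axis, induced minus noninduced, on log2(signal + 16)) of each tested gene of the ribosomal protein set and of 6 related lists, with the number tested in brackets and the median as a black bar. Eif4ebp1, at 0.35, is the single point past the adjusted threshold (red), and the ribosomal protein genes lie between -0.21 and 0.09.

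The members' values moved with the scaling. Median centring adds the same amount to every probe set: the median over all probe sets was then 0.0829 and that of the members 0.0862, with Rpl13a at 0.17. In that setting 14 of 42 members had an unadjusted p under 0.05 with a higher value (33.3% as against 16.6% of all probe sets). A lower value with such a p was found in 0 (2.08% of all probe sets), and 0 passed after adjustment in limma. These shares are not like for like: under the deposited scaling the median SE was 0.0405 in the members and 0.117 over all probe sets. The share among probe sets as bright as the members was not computed. Quantile normalization moved genes in both directions (Rplp0 from 0.06 to 0.10, Rps25 from -0.18 to -0.20). It gave a member median of 0.0107, beside -0.0001 over all probe sets, with 5 members higher and 3 lower at an unadjusted p under 0.05. No direction is given for the members as a set.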

How the data were processed

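Total RNA of 6 cultures, 3 a group, was labelled with biotin and hybridised to 1 array each. The authors deposited 1 intensity (a linear signal) for each probe set. Per the submitters' processing notes the software was GCOS 1.1.1, with settings not given in the sources used here. A common scaling of the arrays was read from the values: after trimming 2% at each end the mean was 150.0 on every array. The deposited instrument records hold no expression values. Fluidics runs were inferred from the hybridisation times in the file headers, with a new run taken to start after a long gap.

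The 64 control probe sets were left out. Genes were named from the platform annotation where it lists 1 gene (34945 of 45037 probe sets); 932 list several and 9160 were not listed. All 46 members matched RefSeq by gene ID with the same symbol. Values were taken to log2(signal + 16), and probe sets above the median mean signal were tested with limma 3.58.1 under R 4.3.3, by lmFit and a trended eBayes, at a Benjamini-Hochberg adjusted p of 0.05. The fold of dim probe sets is understated on this scale. The fit was tested on simulated data.

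Named genes are members past the threshold, the 10 highest and 10 lowest, those with an opposed probe set at unadjusted p under 0.05, and fixed genes of interest; from each list, genes past the threshold, the 2 largest differences and fixed genes. Others named with values were chosen after their values were seen, as was the limit of 4000. The members and lists were chosen with earlier results of these data known. Alternatives were other scalings, filters, pseudocounts (1 and 64), moderation, array weights, blocks, arrays left out and other choices of probe set.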

Additional observations from a re-analysis of the deposited data

How the results depend on the processing

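The count of ribosomal protein genes past the limma threshold was 0 in every alternative run: both other scalings (median centring and quantiles), both other filters (none, or the 75th percentile), both pseudocounts (1 and 64), both other moderations, array weights, both blocks (replicate number and fluidics run), the first run alone, each array left out, and both other readings of a gene (all its probe sets averaged, or its brightest one outside the _x_at and _s_at classes). The median log2 fold change over these genes, -0.0071, was 0.0862 after median centring and 0.0181 both with fluidics run as a block and in the first run alone, both of which rest on induced replicate 1. With 1 array left out it was -0.0258 to 0.0053, the lowest without induced replicate 1. The other alternatives moved it by less than the spread between replicates (0.0184). Same-numbered arrays did not vary together (correlations of their deviations 0.0124, -0.0629 and -0.00875). Whether same-numbered cultures were handled in pairs cannot be told from this. The replicate block leaves each fold change, and so the median of -0.0071, as it was, and with it the count was 0. At an unadjusted p under 0.05 the main 4 members became 14 after median centring, 8 after quantile normalization, and 1 without a variance trend or without induced replicate 1. Of the named genes' values 948 kept their side of the threshold and stayed within the replicate spread, 95 moved by more without crossing it, and 11, all of Eif4ebp1, lost the call. The number of arrays limits the precision, most for the dim members.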
